A study of Homo sapiens with 44 samples.

Results

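The comparison described here is the earliest one in the study: RNA-seq of Kelly cells after 1 day with STM2457 or DMSO. It comprised 6 of the 44 libraries of the series, 3 per group, chosen from the labels by their cell line, time, treatment and kind of library. Kelly is an established human neuroblastoma cell line with an amplified MYCN gene. The control cells received DMSO, the solvent, and the treated cells 8 µM STM2457, a small-molecule inhibitor of the catalytic activity of METTL3, and both groups were taken after 1 day. The libraries are inputs, that is, fragmented poly(A) RNA sequenced without pull-down. The study also holds pull-downs of m6A-carrying fragments, Kelly cells after 6 days, NGP cells (another MYCN-amplified neuroblastoma line) after 6 days, and Kelly tumours in nude mice. Here the inputs of Kelly and NGP cells at 6 days, with the same 8 µM dose, serve for comparison. The labels number the libraries of a group 1 to 3 and do not say whether they came from separate cultures, so the p-values measure the spread between these libraries, which may be technical.

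N6-methyladenosine (m6A) is the most common internal base modification of mRNA. It is written in the nucleus by METTL3, which carries the catalytic site, with METTL14, which helps to hold the RNA, and a set of adaptor proteins around WTAP. It is removed by FTO and ALKBH5 and read by YTH-domain proteins, several of which hasten the decay of methylated mRNA. Methylation falls mainly in long internal exons and near stop codons, since complexes left on the RNA at splice junctions keep the writer away from their surroundings. Neuroblastoma arises from the sympathetic nervous lineage, and adrenergic lines such as Kelly make catecholamines and depend on transcription factors of that lineage.

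The 6 libraries held between 24065485 and 26559877 fragments assigned to genes. Levels are given as counts-per-million values (CPM) after scaling for library size and composition, and changes as the log2 ratio of STM2457 over DMSO. Every adjusted p-value comes from the quasi-likelihood test of edgeR, corrected by the Benjamini-Hochberg method over all genes tested. A gene counts as changed, risen or fallen at an adjusted p under 0.05. All 11 adrenergic neuroblastoma markers stood at 10 CPM or more in every library. Of 7 mesenchymal neuroblastoma markers 1 did, FN1 at 107 to 127 CPM, and 3 stayed under 1 CPM in all libraries. Of the markers of other cells, COL1A1 of fibroblasts reached 9.12 CPM and CD68 of leukocytes 5.97 CPM, while the summed Schwann cell, endothelial and epithelial markers stayed at 1.55, 2.90 and 0.505 CPM or less. Of a wider list of 8 fibroblast markers 5 were tested. PDGFRB had the highest DMSO mean, 73.5 CPM, and THY1, which neurons also make, rose from 76.8, 70.0 and 67.4 CPM to 87.1, 83.0 and 80.4 CPM. THY1 was not called without DMSO replicate 2 (0.21) or 3 (0.18) or treated replicate 1 (0.19) or 2 (0.23). Replicates were not copies of each other, with chi-square values per degree of freedom of 3.71 to 9.09 between pairs. The DMSO libraries were less alike than the treated ones: genes of the highest GC quintile stood 0.071 above their group mean (log2) in DMSO replicate 2 and 0.11 below it in DMSO replicate 3.

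After 1 day 2315 of 13246 genes had changed, which is 17.5% of those tested. Of these, 1247 rose (9.41% of the genes tested) and 1068 fell (8.06%). The changes were small. The median size among the changed genes was 0.29 on the log2 scale, or 22.5%, with quartiles of 0.23 and 0.40, and the median of all genes was 0.0074. Only 199 genes (1.5%) were called with a change of at least 1.5-fold, 122 of them up and 77 down. Tested against a minimum change of 1.2-fold with glmTreat of edgeR, 147 genes passed (1.11%), 101 up and 46 down. The number of changed genes was 1249, 1373 and 1488 without treated replicate 1, 2 or 3, and 966 of the 2315 genes (41.7%) were called in all 6 fits that left out a library. For the 1.2-fold minimum the numbers were 78, 66 and 81 without these libraries. A fit that estimated 1 spread from all 22 inputs of the series called 26 genes. The common biological coefficient of variation was 0.0725 in the 6 libraries and 0.24 in the NGP inputs. Of all genes tested, 2373 (17.9%) had all 3 treated libraries above all 3 DMSO libraries and 2122 (16.0%) had them all below. The counts for gene groups below are read against these shares, which are not matched for level. In the lowest quintile of DMSO level 2.53% of nuclear genes rose and 1.28% fell. In the highest, above 89.4 CPM, 11.6% rose and 22.4% fell, so groups of highly expressed genes would hold more falls than 8.06% at their level.

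Most mRNAs of m6A writers rose. Of 9 genes, the complex and the separate writer METTL16, 7 rose and 0 fell, with a median log2 change of 0.29, against 9.41% rising among all genes. RBM15B, an adaptor that guides the complex to RNA, stood at 93.2, 100.5 and 89.7 CPM with DMSO and rose to 133, 135 and 139.7 CPM, a log2 change of 0.53 (SE 0.0557, edgeR adjusted p 7.93e-06). WTAP, the adaptor that gathers METTL3 and METTL14 in nuclear speckles, went from 53.7, 57.1 and 56.9 CPM to 76.4, 78.8 and 80.4 CPM. In both genes the groups lay far apart, while in VIRMA, the scaffold of the adaptor complex, they nearly touched: 72.7, 74.8 and 88.2 CPM with DMSO against 94.6, 99.4 and 89.2 CPM (log2 0.26, SE 0.0717, edgeR adjusted p 0.0164). METTL16, which works outside the complex and acts on the mRNA of the SAM synthetase MAT2A and on U6 RNA, rose from 78.6, 69.8 and 78.9 CPM to 92.6, 97.3 and 92.5 CPM (0.31, SE 0.0621, edgeR adjusted p 0.00211). CBLL1 and METTL14 rose by 0.42 and 0.29, and ZC3H13, which keeps the complex in the nucleus, by 0.17. The METTL3 mRNA itself, which encodes the drug's target, was not called, at 101, 90.7 and 90.1 CPM against 103, 97.6 and 108 CPM (0.13, SE 0.0609, edgeR adjusted p 0.162), and its groups overlapped. RBM15, the paralog of RBM15B, had a change of 0.09 (SE 0.0628, edgeR adjusted p 0.359). The calls of RBM15B, WTAP and METTL16 held without each library in turn. CBLL1 was not called without DMSO replicate 1 (0.35) or treated replicate 1 (0.41) or 2 (0.36), and METTL14 not without DMSO replicate 1 (0.23) or treated replicate 2 (0.24) or 3 (0.28). VIRMA lost its call without DMSO replicate 1 (0.21) or 2 (0.23) or treated replicate 1 (0.26) or 2 (0.23). ZC3H13 lost its call without DMSO replicate 1 (0.14) or 2 (0.15) or treated replicate 1 (0.18), 2 (0.14) or 3 (0.17). Summed, the 9 genes took 0.0669% ± 0.00167 of counts with DMSO and 0.0825% ± 0.00171 with STM2457 (SD, n = 3), a difference with an exact two-sided permutation p of 0.1, the smallest that 3 against 3 allows. RBM15B shares 20% of its exon bases with another gene.

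Both demethylases rose as well. FTO stood at 63.6, 69.1 and 63.1 CPM with DMSO and at 85.9, 85.7 and 87.2 CPM with STM2457, with no overlap (0.40, SE 0.0603, edgeR adjusted p 0.000199). ALKBH5 moved less, from 60.3, 62.3 and 56.3 CPM to 65.1, 71.7 and 74.1 CPM, and was not called without DMSO replicate 3 (0.19) or treated replicate 2 (0.22) or 3 (0.20). Of 11 tested readers, 1 rose and 2 fell, with a median of -0.036. The riser was YTHDC1, the nuclear reader (0.22, SE 0.0563, edgeR adjusted p 0.0102), whose call was lost without treated replicate 1 (0.22) or 3 (0.21). The mRNAs of HNRNPC and IGF2BP1, RNA-binding proteins that act as indirect or direct readers, fell by 0.20 and 0.13 on the log2 scale. The IGF2BP1 call did not hold without DMSO replicate 1 (-0.10) or treated replicate 1, 2 or 3 (-0.13 each). Of 13 genes of S-adenosylmethionine metabolism, which supplies the methyl groups, 0 rose and 3 fell: CBS, which draws homocysteine off the cycle (-0.34, SE 0.075, edgeR adjusted p 0.0041), and the polyamine synthases SMS (-0.20) and SRM (-0.17). Without treated replicate 1, 2 or 3 the values were -0.19, -0.21 and -0.20 for SMS and -0.17, -0.16 and -0.18 for SRM, none of them called. SRM was also not called without DMSO replicate 2 (-0.10).

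**Figure D1:**
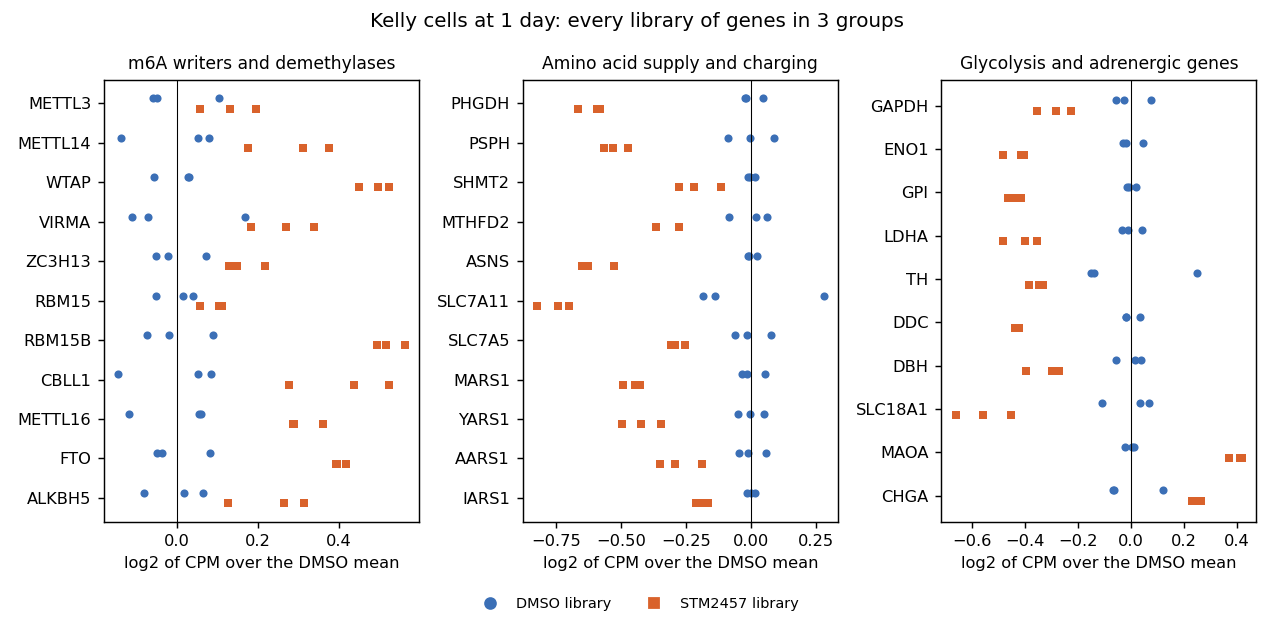
Each library's CPM over the mean of the 3 DMSO libraries (log2; circles DMSO, squares STM2457) for the writers and demethylases, for genes of amino acid supply and tRNA charging, and for glycolytic and adrenergic genes. Treated WTAP, RBM15B and FTO lie to the right of all their controls and PHGDH, ASNS, MARS1 and GPI to the left, while the METTL3 groups overlap.

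Many genes that make amino acids or load them onto tRNAs fell. Many of them are activated by ATF4, a transcription factor made when eIF2alpha is phosphorylated, which binds an element formed by C/EBP and ATF sequences. Of 15 tested genes of serine, one-carbon, asparagine and proline synthesis 9 fell and 0 rose, with a median of -0.25, against 8.06% falling among all genes. PHGDH, the first enzyme of serine synthesis (chromosome 1, 119648411 to 119744226, GRCh38, plus strand), stood at 517, 542 and 518 CPM with DMSO and at 348, 331 and 351 CPM with STM2457, a log2 change of -0.61 (SE 0.0434, edgeR adjusted p 1.72e-07). ASNS, the asparagine synthetase (chromosome 7, 97851677 to 97872542, minus strand), went from 117, 117 and 119.8 CPM to 75.2, 82.0 and 76.4 CPM (-0.60, SE 0.0555, edgeR adjusted p 1.68e-06). Both fell by about the same share of their level, 34.7% and 34.1%, with wide gaps between the groups. PSPH, the last enzyme of serine synthesis, fell from 32.0, 36.2 and 34.0 CPM to 24.5, 23.6 and 23.0 CPM (-0.52, SE 0.0855, edgeR adjusted p 0.000433). PSAT1, the step between PHGDH and PSPH, was not called, with 67.0 ± 4.63 CPM against 60.7 ± 1.64 CPM (SD, n = 3; log2 -0.14, edgeR adjusted p 0.163). The mitochondrial folate enzyme MTHFD2 fell by 0.31 and SHMT2, which splits serine into glycine and a one-carbon unit, by 0.20. SHMT2 was not called without treated replicate 1 (-0.20) or 2 (-0.17).

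Among 13 amino acid transporters 3 fell, 0 rose and 10 were not called. SLC7A11, the cystine importer, stood at 11.7, 11.3 and 15.6 CPM with DMSO and at 7.26, 7.67 and 7.91 CPM with STM2457 (-0.76, SE 0.144, edgeR adjusted p 0.00146). SLC6A9, a glycine importer, fell by 0.73, and SLC7A5, the main importer of large neutral amino acids, from 358, 383 and 347 CPM to 293, 296 and 304 CPM (-0.28, SE 0.0465, edgeR adjusted p 0.000452). SLC3A2, the partner chain of SLC7A5 and SLC7A11 at the membrane, was not called (-0.11, SE 0.0566, edgeR adjusted p 0.183).

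Of the 20 cytosolic aminoacyl-tRNA synthetases, which join each amino acid to its tRNA, 15 fell and 1 rose, with a median of -0.27, and 13 of the 16 calls held in every fit that left out a library. MARS1, the methionyl enzyme, went from 433, 412 and 407 CPM to 306, 297 and 310.1 CPM (-0.46, SE 0.0438, edgeR adjusted p 2.71e-06). The tyrosyl enzyme YARS1 went from 217, 203 and 209 CPM to 156, 148 and 165 CPM (-0.42, SE 0.0515, edgeR adjusted p 3.38e-05), and WARS1, the tryptophanyl enzyme, fell by 0.47. The groups did not overlap in any of these 3 genes. HARS1, the histidyl enzyme, was the riser, from 148, 139 and 141 CPM to 164, 159.8 and 158 CPM (0.17, SE 0.0491, edgeR adjusted p 0.0208). That call was lost without DMSO replicate 3 (0.16) and without treated replicate 1, 2 or 3 (0.16, 0.18 and 0.18). The synthetases' share of all counts went from 0.489% ± 0.00745 to 0.424% ± 0.00189 (SD, n = 3; exact two-sided permutation p 0.1, the smallest possible).

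Of 20 tested genes that respond to ATF4, its partner CHOP or stress in the endoplasmic reticulum, 10 fell and 2 rose, with a median of -0.24. The ATF4 mRNA itself (chromosome 22, 39519695 to 39522685, plus strand) fell from 586, 562 and 545 CPM to 449, 455 and 466 CPM, a log2 change of -0.30 (SE 0.0425, edgeR adjusted p 0.000104). STC2, a secreted glycoprotein, went from 10.9, 10.3 and 10.8 CPM to 6.99, 5.06 and 6.3 CPM (-0.81, SE 0.147, edgeR adjusted p 0.00108). CHAC1, which breaks down glutathione, went from 10.8, 10.4 and 8.93 CPM to 5.05, 5.87 and 6.84 CPM (-0.76, SE 0.153, edgeR adjusted p 0.00233). These were the largest falls of the group, in genes of low level. DDIT3, which encodes CHOP, fell by 0.54 (SE 0.156, edgeR adjusted p 0.0224), a call lost without DMSO replicate 2 (-0.48) or treated replicate 1 (-0.41). Among genes of the endoplasmic reticulum, the chaperone HSP90B1 fell from 555, 590.3 and 608 CPM to 439, 459 and 438 CPM. The transcription factor XBP1 fell from 98.7 ± 1.48 to 78.9 ± 1.32 CPM (SD, n = 3). The risers were CEBPG, a dimer partner of ATF4 (0.36, SE 0.0745, edgeR adjusted p 0.00304), and SDF2L1, a chaperone component (0.41, SE 0.0776, edgeR adjusted p 0.00147). TRIB3, a common marker of ATF4 activity, was not called at 1 day, with 17.8, 17.2 and 15.6 CPM against 13.5, 15.5 and 14.9 CPM (-0.20, SE 0.109, edgeR adjusted p 0.22).

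The promoters of these genes were searched for TGATGNAA, the core of the C/EBP-ATF composite element, on both strands from 250 bases before to 50 after the RefSeq transcription start. Such a match was present in 14 of the 55 promoters found for the 4 amino acid and ATF4 groups (25.5%), in 1.62% of the promoters of 10552 tested genes and in 3.67% of all 27305 promoters of the table. By group these were 6 of 16 synthetases, 3 of 9 synthesis genes, 3 of 11 transporters and 2 of 19 ATF4-CHOP genes. Of the 28 promoters whose genes fell 9 held a match, and of the 27 others 5 did. Over all tested genes a match was in 2.15% of the promoters of genes that fell and 1.21% of those that rose. Many genes of the 4 groups are known ATF4 targets. The higher share in them goes with the choice of the groups and does not bear on the 1 day change. All 6 synthetases with a match fell (AARS1, CARS1, IARS1, MARS1, NARS1 and TARS1), as did 6 of the 10 without one. The transporters with a match were SLC3A2, SLC7A1 and SLC38A1, and none of these was called. A match is only a description of the sequence. The sites of 5 of the 9 fallen genes are shown, those with a match wholly before the start. In CARS1, MARS1, NARS1 and TARS1 the match is not wholly before it. The sequences are from RefSeq (GRCh38.p14), 5′ to 3′ on the strand of the gene, with the match in capitals. TGATGAAA matches on the strand shown. TTGCATCA is a match on the other strand, with a different base at the free position. For HERPUD1, which encodes a protein of the endoplasmic reticulum membrane that helps to remove misfolded proteins, the 250 bases before the start are given. For the other genes 30 bases around the match are given.
ASNS: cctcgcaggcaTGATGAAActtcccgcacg
CHAC1: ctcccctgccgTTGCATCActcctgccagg
AARS1: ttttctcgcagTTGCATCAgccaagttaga
IARS1: cccgcattttcagcgcgTTGCATCAcctcc
HERPUD1: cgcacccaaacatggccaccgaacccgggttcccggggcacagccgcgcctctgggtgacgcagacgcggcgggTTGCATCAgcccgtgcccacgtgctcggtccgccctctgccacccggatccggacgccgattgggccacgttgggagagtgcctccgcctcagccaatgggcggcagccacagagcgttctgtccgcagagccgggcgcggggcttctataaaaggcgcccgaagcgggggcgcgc
The sites lie at chr7:97872458-97872487 (minus strand) for ASNS, chr15:40953251-40953280 (plus) for CHAC1, chr16:70289675-70289704 (minus) for AARS1 and chr9:92293698-92293727 (minus) for IARS1. The HERPUD1 sequence is chr16:56931892-56932141 (plus). The matches begin 68, 209, 187, 13 and 176 bases before the RefSeq start of ASNS, CHAC1, AARS1, IARS1 and HERPUD1. HERPUD1 mRNA went from 63.7, 64.3 and 63.7 CPM to 49.1, 52.6 and 47.5 CPM (-0.36, SE 0.0662, edgeR adjusted p 0.00111). The alanyl-tRNA synthetase AARS1 went from 429.5, 400.1 and 410.3 CPM to 338, 324 and 363 CPM, and the isoleucyl enzyme IARS1 from 255, 252 and 258 CPM to 227, 219.9 and 223 CPM (-0.19, SE 0.044, edgeR adjusted p 0.00609). All treated values of these 3 genes lay below all their controls, by 22.2%, 17.4% and 12.4% of the level.

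Many mRNAs of glycolysis and of the nuclear part of the respiratory chain fell. Of 29 tested genes of hypoxia and glycolysis 15 fell and 1 rose, with a median of -0.28. GAPDH, the glycolytic enzyme often used as a reference gene, stood at 9072, 8450.0 and 8274 CPM with DMSO and at 7073, 6730.0 and 7355 CPM with STM2457 (-0.29, SE 0.0401, edgeR adjusted p 0.000112). This was the largest loss of CPM among called genes without overlap between the groups. The enolase ENO1 went from 2773, 2647 and 2629 CPM to 2011, 1922 and 2026 CPM (-0.43, SE 0.0375, edgeR adjusted p 1.13e-06). GPI, which turns glucose phosphate into fructose phosphate, went from 664, 648 and 652 CPM to 492, 475 and 483 CPM (-0.44, SE 0.0397, edgeR adjusted p 1.51e-06). LDHA, the lactate dehydrogenase subunit that MYC proteins induce, went from 427, 422 and 444 CPM to 308, 337 and 327 CPM. Together the list took 1.89% ± 0.0547 of all counts with DMSO and 1.57% ± 0.0422 with STM2457 (SD, n = 3; exact two-sided permutation p 0.1, the smallest possible). EGLN1, an oxygen sensor that marks HIF proteins for decay, was the riser (0.40, SE 0.115, edgeR adjusted p 0.0237). Its call was lost without DMSO replicate 2 (0.38) or 3 (0.34) or treated replicate 1 (0.36) or 2 (0.38), and 55.8% of its exon bases are shared with another gene. ALDOA (-0.52) shares 43.3%, so its level of 43.2 CPM covers only part of the transcript.

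Of 72 nuclear genes of the respiratory chain and ATP synthase 38 fell and 1 rose, with a median of -0.20. NDUFB4, a subunit of complex I, went from 96.9, 89.2 and 94.6 CPM to 67.0, 62.4 and 66.6 CPM (-0.52, SE 0.0606, edgeR adjusted p 2.29e-05). NDUFA13, also of complex I, fell by 0.52 and ATP5PO, of the ATP synthase stalk, by 0.45. UQCRFS1, the iron-sulfur protein of complex III, was the riser, from 73.2, 71.1 and 76.3 CPM to 90.0, 93.2 and 99.5 CPM (0.36, SE 0.0603, edgeR adjusted p 0.00056). Of the 39 calls 27 held in every fit that left out a library. Of the 13 mRNAs encoded by the mitochondrial genome 5 rose and 0 fell, with a median of 0.098, and 0 of these 5 calls held in every such fit. MT-CYB stood at 1802, 1680.0 and 1687 CPM without and 1908, 1892 and 1925 CPM with the inhibitor (0.15, SE 0.0382, edgeR adjusted p 0.0125). Its call was lost without DMSO replicate 3 (0.12) or treated replicate 1 (0.15) or 3 (0.14). The calls of MT-CO1 and MT-CO2 were also lost with RLE size factors (0.10 each) and with DESeq2 (0.10 each), and without DMSO replicate 2 or 3 or any treated library (0.08 to 0.12 for MT-CO1, 0.09 to 0.12 for MT-CO2). MT-ATP6 was lost without treated replicate 1 (0.14) or 2 (0.12), and MT-ATP8 likewise (0.20 and 0.19). The shares of all counts were 2.81% ± 0.101 and 3.04% ± 0.0439 for the mitochondrial mRNAs, and 1.08% ± 0.00996 and 0.965% ± 0.00588 for the nuclear list (SD, n = 3; exact two-sided permutation p 0.1 for each, the smallest possible).

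Many proteasome and cytosolic ribosome genes fell, and genes of the mitochondrial ribosome were called in both directions. Of 35 proteasome subunits 20 fell and 2 rose, with a median of -0.21. PSMB6, which carries a catalytic site of the proteasome core, went from 309.5, 296 and 282 CPM to 217, 220.5 and 224 CPM (-0.42, SE 0.0473, edgeR adjusted p 1.29e-05). The catalytic subunit PSMB7 fell by 0.38 and PSMB2 by 0.40. PSMB5, the remaining catalytic subunit of the standard core, went the other way, from 328, 309 and 313 CPM to 391, 384 and 386 CPM (0.29, SE 0.043, edgeR adjusted p 0.000183). Both shifts left the groups without overlap. PSMD5, an assembly chaperone, also rose (0.27), though not without DMSO replicate 1 (0.21) or treated replicate 2 (0.21). Of 78 cytosolic ribosomal protein genes 31 fell and 1 rose, with a median of -0.095. RPL7A stood at 3020.0, 2845 and 2863 CPM with DMSO and at 2343, 2296 and 2436 CPM with STM2457 (-0.30, SE 0.0379, edgeR adjusted p 3.95e-05). RPL24 fell by 0.37, RPS26 by 0.37 and RPS7 by 0.31. The riser was RPL36AL, a retrocopy of RPL36A with few exons, from 106, 97.5 and 108 CPM to 147, 156 and 149 CPM (0.54, SE 0.0543, edgeR adjusted p 4.49e-06). Ribosomal protein genes and GAPDH have many near-identical pseudogene copies, so how their fragments were assigned is uncertain. Of 78 mitochondrial ribosomal protein genes 19 rose and 9 fell, with a median of 0.018. MRPL41 (chromosome 9, 137551879 to 137552555, plus strand) went from 49.2, 60.2 and 49.4 CPM to 91.4, 101 and 91.6 CPM (0.84, SE 0.077, edgeR adjusted p 1.61e-06). MRPL36 rose by 0.68 (SE 0.0848, edgeR adjusted p 3.95e-05), while MRPL13 fell by 0.36 (SE 0.0844, edgeR adjusted p 0.00682).

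**Figure D2:**
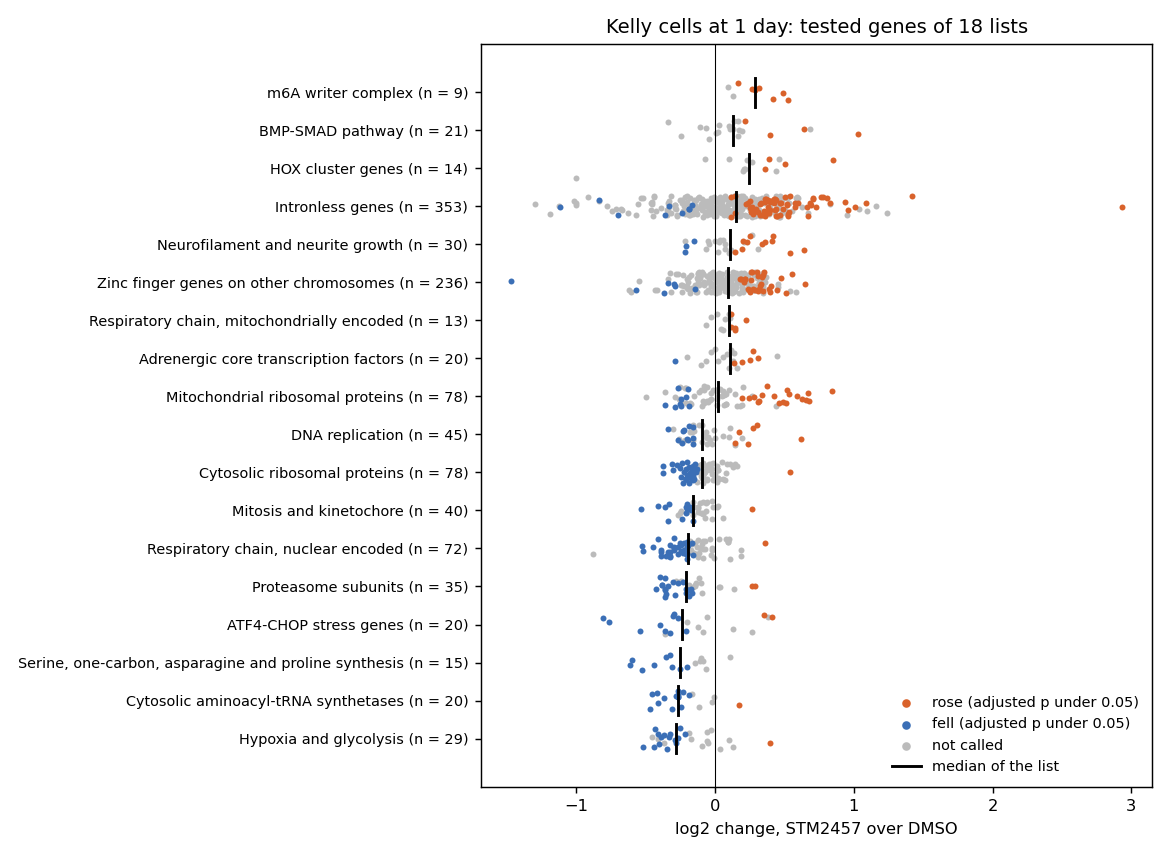
The log2 change (STM2457 over DMSO) of every tested gene in 18 gene lists, 1 point per gene, coloured where it rose or fell at an adjusted p under 0.05 (edgeR), with the list median as a bar. The medians run from 0.29 in the m6A writers to -0.28 in hypoxia and glycolysis, with the mitochondrial ribosomal proteins spread to both sides.

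The largest single changes were in other kinds of genes. They were taken from the genes called, without overlap between the groups and with an average log2 CPM of 2 or more. SMAD6 is an inhibitor of bone morphogenetic protein (BMP) signalling that is itself induced by that pathway (chromosome 15, 66702236 to 66782849, plus strand). It stood at 33.6, 40.5 and 34.9 CPM with DMSO and at 75.3, 73.9 and 73.2 CPM with STM2457 (1.03, SE 0.075, edgeR adjusted p 2.13e-07). TPGS1, a subunit of the tubulin polyglutamylase, rose more but at a low level and with more scatter, from 2.36, 5.05 and 3.2 CPM to 6.37, 9.51 and 7.5 CPM (1.14, SE 0.23, edgeR adjusted p 0.00231). CCDC85B, an intronless gene, went from 13.2, 20.5 and 14.0 CPM to 30.4, 34.6 and 30.9 CPM (1.01, SE 0.131, edgeR adjusted p 5.4e-05). In TPGS1 and CCDC85B, both rich in GC, DMSO replicate 2 was the highest control. RAB33A, a small GTPase of vesicle traffic on the X chromosome, went from 16.4, 16.6 and 16.6 CPM to 33.8, 32.1 and 29.8 CPM (0.95, SE 0.091, edgeR adjusted p 2.71e-06). PLXNA4, a receptor for semaphorins that steers axons, went from 33.2, 26.9 and 30.4 CPM to 52.9, 54.0 and 55.1 CPM (0.84, SE 0.0817, edgeR adjusted p 3.08e-06). LAMTOR2, a part of the Ragulator complex that anchors mTORC signalling to lysosomes, went from 28.6, 29.4 and 27.9 CPM to 50.0, 53.6 and 49.6 CPM (0.83, SE 0.0747, edgeR adjusted p 1.51e-06). These 3 genes had narrow groups a wide gap apart. The other genes of the 12 largest rises were NT5C1A (0.96), PRR35 (0.99), the muscarinic receptor gene CHRM1 (0.86), HOXC9 (0.85), MRPL41 and RWDD3 (0.88), the last with 50.6% of its exon bases shared with another gene.

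Among the falls was CDKN1A. It encodes p21, an inhibitor of cyclin-dependent kinases (chromosome 6, 36676460 to 36687339, plus strand), and went from 164, 172 and 147 CPM to 93.7, 87.4 and 93.4 CPM (-0.81, SE 0.0605, edgeR adjusted p 2.21e-07). ARHGAP36, an activator of Hedgehog signalling on the X chromosome, went from 46.8, 52.0 and 49.4 CPM to 26.6, 24.6 and 27.6 CPM (-0.91, SE 0.0798, edgeR adjusted p 1.32e-06). Neither pair of groups overlapped, as the choice of these genes requires. Of 9 tested neuropeptide precursors 2 fell and 0 rose. CRH, the precursor of corticotropin-releasing hormone, went from 7.09, 8.28 and 5.58 CPM to 3.8, 2.73 and 2.94 CPM (-1.14, SE 0.198, edgeR adjusted p 0.000741). CARTPT, the precursor of the CART peptides, went from 21.6, 20.9 and 19.4 CPM to 12.1, 10.4 and 11.1 CPM (-0.87, SE 0.109, edgeR adjusted p 3.92e-05). The remaining largest falls were CNN2 (-0.97), CNKSR1 (-0.88), TMEM86B (-0.83), EHHADH (-0.82), SGK3 (-0.81), STC2, DEXI (-0.76) and CHAC1. DEXI shares 36.2% of its exon bases with another gene, and SGK3 was not called without DMSO replicate 1 (-0.68) or treated replicate 1 (-0.79).

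CARTPT and CRH are known targets of cAMP signalling. The 250 bases before the RefSeq start of CARTPT (chr5:71719025-71719274, plus strand, GRCh38.p14) are shown, since CARTPT is 1 of the 2 neuropeptide genes that fell. They hold 1 cAMP response element, TGACGTCA, in capitals, which begins 143 bases before the start. That element is in 3.3% of the promoters of tested genes, and in 4.05% of those that rose and 2.94% of those that fell.
CARTPT: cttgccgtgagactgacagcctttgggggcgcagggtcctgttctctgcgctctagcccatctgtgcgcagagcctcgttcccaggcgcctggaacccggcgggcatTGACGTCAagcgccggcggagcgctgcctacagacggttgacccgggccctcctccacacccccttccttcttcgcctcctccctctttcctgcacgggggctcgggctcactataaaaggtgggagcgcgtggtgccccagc

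**Figure D3:**
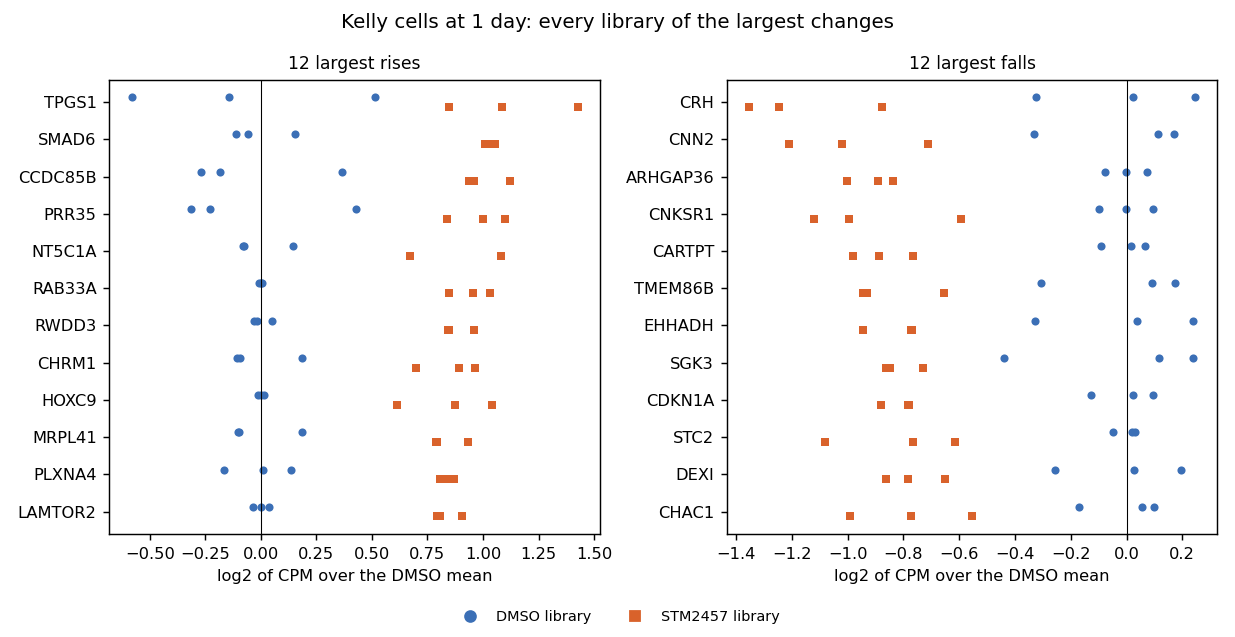
Each library's CPM over the mean of its 3 DMSO libraries (log2; circles DMSO, squares STM2457) for the 12 largest rises and 12 largest falls. All treated points lie beyond all DMSO points, as the choice of these genes requires, with tight groups in SMAD6, RAB33A and ARHGAP36 and wide ones in TPGS1 and PRR35.

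In the adrenergic programme several transcription factors rose while several enzymes of catecholamine synthesis fell. Of 20 core transcription factors 5 rose and 1 fell, with a median of 0.11. TBX2 went from 298, 332 and 292 CPM to 379.9, 371 and 392 CPM (0.31, SE 0.0507, edgeR adjusted p 0.000425). EYA1 was the one that fell (-0.29, SE 0.0607, edgeR adjusted p 0.00307). The MYCN mRNA, the amplified driver gene, did not pass the test, at 3634, 3786 and 3372 CPM against 3472, 3481 and 3621 CPM (-0.029, SE 0.0411, edgeR adjusted p 0.684), and its groups overlapped. Of 14 genes of catecholamine synthesis and transport 4 fell and 2 rose. Their median was -0.026, with 7 positive and 7 negative changes, and it was 0.0062 without DMSO replicate 2. The falls covered successive steps. TH, the rate-limiting hydroxylase, went from 591, 780.4 and 596 CPM to 503, 516 and 522 CPM (-0.35, SE 0.0746, edgeR adjusted p 0.00331). DDC, which makes dopamine, went from 752, 726 and 725 CPM to 548, 542 and 544 CPM (-0.43, SE 0.0393, edgeR adjusted p 1.51e-06). DBH, which makes noradrenaline, went from 2836, 2793 and 2659 CPM to 2248, 2099 and 2287 CPM (-0.32, SE 0.0404, edgeR adjusted p 4.08e-05). SLC18A1, the vesicular transporter, went from 84.2, 76.2 and 86.2 CPM to 55.8, 60.0 and 52.0 CPM (-0.56, SE 0.0703, edgeR adjusted p 4.15e-05). Treated values were lower than all controls in each of the 4, with DMSO replicate 2 of TH well above its neighbours. MAOA, which degrades the amines, rose from 264, 258 and 263 CPM to 348, 350.3 and 339 CPM (0.40, SE 0.0428, edgeR adjusted p 8.13e-06), as did SPR (0.39), which makes the cofactor of TH. CHGA, a granule protein, had the largest gain of CPM among called genes without overlap between the groups. It went from 6980.0, 7966 and 7009 CPM to 8658, 8798 and 8598 CPM (0.25, SE 0.0429, edgeR adjusted p 0.000731). In bulk RNA such as this, fewer cells of a type and less RNA per cell cannot be told apart.

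Several genes of neuronal form rose. Of 30 neurofilament and neurite growth genes 11 rose and 3 fell, with a median of 0.11. TUBB2B, a neuronal beta-tubulin, went from 154, 168 and 159.5 CPM to 250.3, 254 and 248 CPM (0.64, SE 0.0482, edgeR adjusted p 2.21e-07). Its near-identical neighbour TUBB2A rose by 0.75 (SE 0.0748, edgeR adjusted p 3.88e-06), and how fragments were split between these 2 genes is uncertain. STMN4, a regulator of microtubule ends, rose by 0.54 and RTN1, a reticulon of neurons, by 0.42, while DPYSL2 (-0.22) and MAP2 (-0.21), both microtubule-binding proteins, fell. Over all 31 tubulins and tubulin modifiers 8 rose and 5 fell, among the latter the alpha-tubulin TUBA1B (-0.27, SE 0.0391, edgeR adjusted p 0.000177). Of 19 receptor tyrosine kinases 2 rose (10.5%, near the 9.41% of all genes) and 0 fell. RET, the receptor for GDNF-family ligands, went from 335, 332 and 322 CPM to 408, 391 and 414 CPM (0.29, SE 0.0433, edgeR adjusted p 0.000184). The groups of RET were separate. In axon guidance 7 of 46 genes rose and 3 fell, and of 37 voltage-gated ion channels 6 rose and 1 fell. There KCNH2, a potassium channel, went from 199, 214 and 178 CPM to 288, 267 and 300.3 CPM (0.54, SE 0.0608, edgeR adjusted p 1.62e-05).

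In the BMP-SMAD pathway 4 of 21 tested genes rose and 0 fell, with a median of 0.13. The 4 were SMAD6, the decoy receptor BAMBI, the inhibitor SMAD7 and the transducer SMAD9. BAMBI went from 13.5, 9.8 and 12 CPM to 19.5, 18.7 and 16.8 CPM (0.64, SE 0.125, edgeR adjusted p 0.00186). SMAD7 rose by 0.40, a call lost without DMSO replicate 1 (0.31) or treated replicate 1 (0.36) or 3 (0.39). SMAD9 rose by 0.22 and lost its call without DMSO replicate 1 (0.23) or 2 (0.20) or any treated library (0.25, 0.22 and 0.19). Of 14 tested HOX genes 4 rose and 0 fell, with a median of 0.25. HOXC9, a factor linked to sympathetic differentiation, went from 10.9, 10.7 and 10.8 CPM to 16.5, 22.3 and 19.8 CPM (0.85, SE 0.121, edgeR adjusted p 0.00013). HOXD13 rose by 0.50 and HOXC4 by 0.36, both held in every fit that left out a library, and HOXD9 by 0.39, which was not called without DMSO replicate 3 (0.28) or treated replicate 2 (0.36) or 3 (0.36). Of 32 immediate early genes, which encode short-lived mRNAs, 8 rose and 2 fell. JUND went from 35.6, 44.7 and 33.4 CPM to 54.9, 65.1 and 60.5 CPM (0.67, SE 0.0962, edgeR adjusted p 0.000141), and KLF11 rose by 0.61 (SE 0.0885, edgeR adjusted p 0.000156). IER5 fell by 0.36 (SE 0.081, edgeR adjusted p 0.00497) and ARC by 0.53, the latter not without DMSO replicate 2 (-0.32) or treated replicate 1 (-0.46) or 3 (-0.46).

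Cell division genes were called in both directions, with more falls than rises. Of 40 genes of mitosis and the kinetochore 13 fell (32.5%) and 1 rose, with a median of -0.16. CDC20, the activator of the anaphase-promoting complex, went from 181, 173 and 178 CPM to 120.4, 122 and 124 CPM (-0.53, SE 0.0483, edgeR adjusted p 1.51e-06). The phosphatase CDC25B fell from 193 ± 4.18 to 150.2 ± 6.18 CPM (SD, n = 3). FOXM1, a transcription factor of mitotic genes, rose from 340.0, 325 and 318 CPM to 400.1, 380.1 and 404 CPM (0.27, SE 0.0448, edgeR adjusted p 0.00054). FOXM1 and CDC20, one of its known targets, were thus called in opposite directions. Of 45 DNA replication genes 11 fell (24.4%) and 6 rose (13.3%). These shares were near the 22.4% and 11.6% of all nuclear genes tested above 89.4 CPM. FEN1, the flap endonuclease of lagging-strand synthesis, went from 239, 249.6 and 246 CPM to 383, 372 and 375 CPM (0.62, SE 0.0432, edgeR adjusted p 1.72e-07), whereas MCM7 of the replicative helicase fell by 0.24. Of 22 p53 target genes 4 fell and 0 rose: CDKN1A, ZMAT3 (-0.44, SE 0.0761, edgeR adjusted p 0.000758), BAX (-0.22) and TNFRSF10B (-0.17). BAX was not called without treated replicate 2 (-0.19), nor TNFRSF10B without DMSO replicate 1 (-0.17) or treated replicate 1 (-0.14) or 2 (-0.18). Of 19 G1 cyclin, CDK and E2F genes 1 rose, the CDK inhibitor CDKN2C, from 61.5, 65.4 and 63.0 CPM to 79.0, 75.6 and 78.6 CPM (0.30, SE 0.0603, edgeR adjusted p 0.00246).

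Other lists held few calls or calls to both sides. Of 7 tested SOCS genes, which brake cytokine signalling, 0 were called, and all 7 had positive changes, with a median of 0.13. Of 15 interferon-induced genes 0 were called (median 0.094). In cholesterol synthesis 3 of 25 rose and 3 fell, in the Notch pathway 4 of 20 rose and 1 fell, and in SR and hnRNP splicing factors 3 of 44 rose and 7 fell. The Notch ligand-like gene DLK1 fell from 2977 ± 248 to 2581 ± 53.4 CPM, and the Notch target HEY1 rose from 19.3 ± 0.839 to 26.6 ± 0.246 CPM (SD, n = 3). HNRNPH1 fell by 0.37 and its paralog HNRNPF rose by 0.32 (SE 0.0414 and 0.0458, edgeR adjusted p 1.33e-05 and 0.000138). Of 32 actin and SRF target genes 7 fell and 1 rose, and among 17 mesenchymal state genes 2 rose, EGFR (0.22) and VIM (0.28). VIM lost its call without DMSO replicate 2 (0.25) or 3 (0.26) or treated replicate 1 (0.30), 2 (0.33) or 3 (0.22). In nonsense-mediated decay and mRNA turnover 2 of 32 rose and 3 fell, with SMG8, a regulator of the decay kinase SMG1, at 65.1, 68.0 and 70.3 CPM against 92.2, 97.7 and 91.9 CPM (0.47, SE 0.0593, edgeR adjusted p 4.15e-05). Among 25 Polycomb and repressor genes 2 rose and 4 fell, with TRIM28, a corepressor of zinc finger proteins, down by 0.29 and JARID2, an accessory subunit of PRC2, up by 0.30. Of 21 MYCN partners and targets 4 rose and 6 fell. Of 20 granin and secretory granule genes 1 rose, CHGA, and 1 fell, SNAP25 (-0.22), the latter not without DMSO replicate 2 (-0.18) or treated replicate 1 (-0.24), 2 (-0.20) or 3 (-0.24). Of 47 replication-dependent histone genes 1 rose and 2 fell, and their poly(A)-selected share of counts was 0.0284% ± 0.0011 against 0.0285% ± 0.000337 (SD, n = 3; exact two-sided permutation p 0.9).

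The direction of the change went with the number of merged exon intervals of a gene. Where 1 transcript keeps an intron, merging joins the exons around it, so 1 interval need not mean a gene without introns. After merging overlapping exons, genes of 1 exon interval rose in 20% of 340 cases and fell in 2.65%. For genes of 2 intervals these shares were 19.4% and 3.39%, for 3 to 5 intervals 13.6% and 6.37%, for 6 to 10 intervals 10.1% and 8.29%, for 11 to 20 intervals 7.01% and 9.17%, and for 21 or more 6.07% and 8.77%. The median log2 change ran from 0.15 in the first class to -0.023 in the last. Genes of 1 interval made up 5.48% of the genes that rose, 0.843% of those that fell and 2.57% of all tested. Among the 122 genes that rose at least 1.5-fold the median was 4 exon intervals, against 11 over all. Of the 340 nuclear genes of 1 interval 68 rose and 9 fell, among the former CCDC85B, JUND and SOWAHA (0.83, SE 0.127, edgeR adjusted p 0.000263). RBM15B is also a gene of 1 exon, and FEN1, RAB33A, RPL36AL and MRPL41 have 2 intervals each. Of 236 zinc finger genes outside chromosome 19, 31 rose (13.1%) and 7 fell. Of 233 on it 16 rose, a share of 6.87% that is below the 9.41% of all genes, and 2 fell. Among the latter list, ZNF787 went from 55.0, 57.4 and 54.0 CPM to 78.0, 86.3 and 84.7 CPM (0.58, SE 0.0639, edgeR adjusted p 1.09e-05). Summed exon length showed no such order, with a Spearman correlation of -0.0035 with the change over 13233 genes against -0.145 for exon intervals. GC content went with the calls as well: 14.4% of the quintile richest in GC rose and 7.17% fell, against 5.84% and 5.15% in the poorest. With GC and length taken out per library, 195 of 195 genes chosen for naming kept their side of the threshold, and 3475 genes were called in all.

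Genes that rose had higher m6A pull-down than other genes in other DMSO libraries, by more in Kelly than in NGP cells. Pull-down over input was taken from the DMSO libraries of Kelly cells at 6 days and of NGP cells, none of which is among the 6 libraries compared. In Kelly cells the median log2 ratio was 1.21 for genes that rose, -2.53 for genes that fell and -0.15 for genes not called. For genes that fell at least 1.5-fold it was -0.80. In NGP cells these medians were 0.36, -0.81 and 0.12. At least 2-fold enrichment in Kelly was found for 56.0% of the genes that rose, 7.0% of those that fell and 32.0% of all. In NGP these shares were 29.3%, 5.58% and 23.3%. By quintile of the Kelly ratio, the share of genes that rose went from 1.8% in the lowest over 4.79%, 9.47% and 16.7% to 16.5% in the highest, and the share that fell from 22.7% over 10.2%, 5.31% and 2.28% to 1.8%. By quintile of the NGP ratio the share that rose went from 6.49% to 12.9% and the share that fell from 17.6% to 1.95%. Across genes, the Spearman correlation of the 1 day change with the ratio was 0.36 in Kelly (12515 genes) and 0.22 in NGP (12026 genes). Genes are not independent replicates. The libraries share transcript lengths and base composition with the comparison, and the Kelly ones also the cell line. Among genes of 11 or more intervals, 13.3% rose at a Kelly log2 ratio of at least 1 and 2.22% at a ratio of -1 or less. Among genes of 3 to 10 intervals these shares were 18.8% and 3.9%, and among genes of 1 or 2 intervals 24.9% and 9.76%. With the NGP ratio they were 9.57% and 5.29%, 14.2% and 7.95%, and 19.7% and 10.9%, in the same order of classes. Genes of 1 or 2 intervals with an NGP ratio between these limits rose in 26.9%. Single genes show both ends: SMAD6, FEN1, BAMBI and RPL36AL had Kelly log2 ratios of 2.62, 3.05, 2.96 and 3.33, and GAPDH, PHGDH, DDC and CDC20 of -5.09, -4.0, -3.50 and -3.44. There were exceptions, since RET rose at a Kelly ratio of -2.56 and STC2 and CHAC1 fell at 3.39 and 2.49. In NGP cells the ratios of SMAD6, STC2, CHAC1 and GAPDH were 0.25, 0.98, 0.13 and -3.0. The level differed too: the median DMSO level was 43.1 CPM for genes that rose and 106 CPM for genes that fell, against 26.4 CPM over all. Among genes of at least 10 CPM the Kelly medians were 1.18 and -2.59. The part of level, GC content and exon number in the relation with pull-down was not tested. The pentamer GGACT is a common form of the m6A consensus. Its median count per kilobase of transcript sequence was 0.989 in genes that rose and 0.88 in genes that fell. In genes not called it was 0.916, and over all tested genes 0.92. In genes that rose or fell at least 1.5-fold the medians were 0.906 and 0.883. Across 13109 genes the Spearman correlation of this count with the 1 day change was 0.0255.

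**Figure D4:**
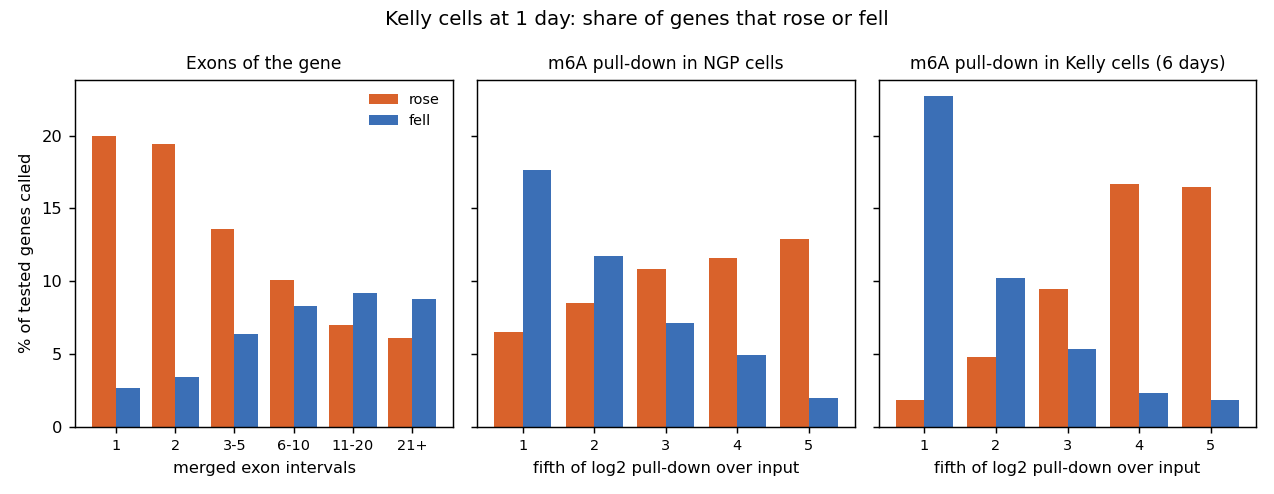
Percent of tested genes that rose or fell at 1 day (adjusted p under 0.05, edgeR) by the number of merged exon intervals and by quintile of the log2 ratio of m6A pull-down over input in DMSO libraries of NGP and of Kelly cells at 6 days. The share that rose declines from 20% at 1 interval to 6.07% at 21 or more, and the share that fell declines from 22.7% to 1.8% over the Kelly quintiles.

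The early changes were compared with those at 6 days, measured in other libraries. Of the 1247 genes that rose at 1 day, 1244 were tested at 6 days and 579 of them (46.5%) rose there too, while 34 fell. Among all genes tested at 6 days 11.9% rose. The 579 genes made up 38.1% of the genes that rose at 6 days, against 9.41% of all tested genes rising at 1 day. Of the 1068 that fell, 548 of 1058 tested (51.8%) fell at 6 days and 10 rose. Among all genes tested at 6 days 14.7% fell. The 548 genes made up 29.2% of the genes that fell then, against 8.06% of all tested genes falling at 1 day. In NGP cells, where 2.07% of genes rose and 2.16% fell, 110 of 1205 (9.13%) rose and 77 of 1037 (7.43%) fell, or 43.3% and 28.9% of the NGP calls. The NGP inputs are shallower than the Kelly inputs at 1 day and more variable. Their 254 rises and 266 falls went to 339, 229 and 128 calls without DMSO replicate 1, DMSO replicate 3 or treated replicate 1. The Kelly inputs at 6 days were uneven in depth. They held 12086438, 12780130 and 12348692 fragments assigned to genes with DMSO, and 28674672, 31487824 and 5765458 with STM2457. Each experiment had its own DMSO libraries. Whether a change itself differed between 6 days and 1 day was tested as an interaction in edgeR, which called 8.41% of 13773 genes. Without the shallowest 6 day library, treated replicate 3, the interaction called 1391 genes in place of 1158. Day and experiment coincide, so the interaction cannot tell a difference between days from a difference between experiments.

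Genes of amino acid supply and ATF4 often had a different change at the later day. Of 20 tested ATF4-CHOP genes 18 fell and 0 rose at 6 days, with a median of -0.85 against -0.24 at 1 day, and 15 of 21 tested had a lower change at 6 days in the interaction. CHAC1 changed by -0.76 at 1 day and -3.93 at 6 days, and STC2 by -0.81 and -3.55. CEBPG and SDF2L1, the risers of 1 day, fell at 6 days (-0.33 and -0.22), and TRIB3, which was not called at 1 day, was at -1.29. For serine, one-carbon, asparagine and proline synthesis the count was 12 of 15 falling with a median of -0.78, and 11 of 15 were lower in the interaction, with ASNS at -2.06 and PHGDH at -1.14. Of the transporters 8 of 13 fell and 7 were lower in the interaction, with SLC7A11 at -2.79, and of the synthetases 12 of 20 fell and 9 were lower. In NGP cells 0 genes of the synthesis, transporter and synthetase lists were called, with medians of -0.26, -0.012 and -0.23, and STC2 fell by 1.53.

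Other groups took other courses. SMAD6 rose by 1.16 at 6 days in Kelly and by 1.32 in NGP cells, close to its 1.03 at 1 day, and its difference between the days was not called. Nor was that of CRH, which changed by -1.14 at 1 day and -1.79 at 6 days in Kelly cells. In NGP cells CRH went the other way and rose by 3.94 (edgeR adjusted p 0.00413). RET (0.29 at 1 day, 1.19 at 6 days), PLXNA4 (0.84 and 1.80), TBX2 (0.31 and 1.01), SMAD7 (0.40 and 1.23) and SMAD9 (0.22 and 0.86) had higher changes at 6 days. TH (-0.35 and -1.01), DDC (-0.43 and -0.81), CARTPT (-0.87 and -2.07) and CDKN1A (-0.81 and -1.38) had lower ones. LAMTOR2 (0.83 and 0.29), CCDC85B (1.01 and 0.32) and JUND (0.67 and 0.23) had smaller rises at 6 days, and MRPL41 was not called there (0.84 and 0.0041). The difference between the days was called for each of these genes. LAMTOR2, CCDC85B and MRPL41 were chosen by the size of their 1 day change, and JUND as a leading riser of its list. The interaction uses the same 1 day libraries again, so this choice by itself favours smaller changes at 6 days. At 6 days 54 of 312 genes of 1 exon interval, mitochondrial ones included, rose and 42 fell. The count of mitochondrial ribosomal proteins was 6 up and 25 down of 77. Of 71 nuclear respiratory chain genes 48 fell at 6 days, of 78 cytosolic ribosomal proteins 59, of 31 glycolysis genes 20 and of 34 proteasome subunits 23. Among DNA replication genes 2 rose and 2 fell of 45. The writers counted 4 risers of 9, with RBM15B at 0.70 and WTAP not called (0.24, edgeR adjusted p 0.0558).

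**Figure D5:**
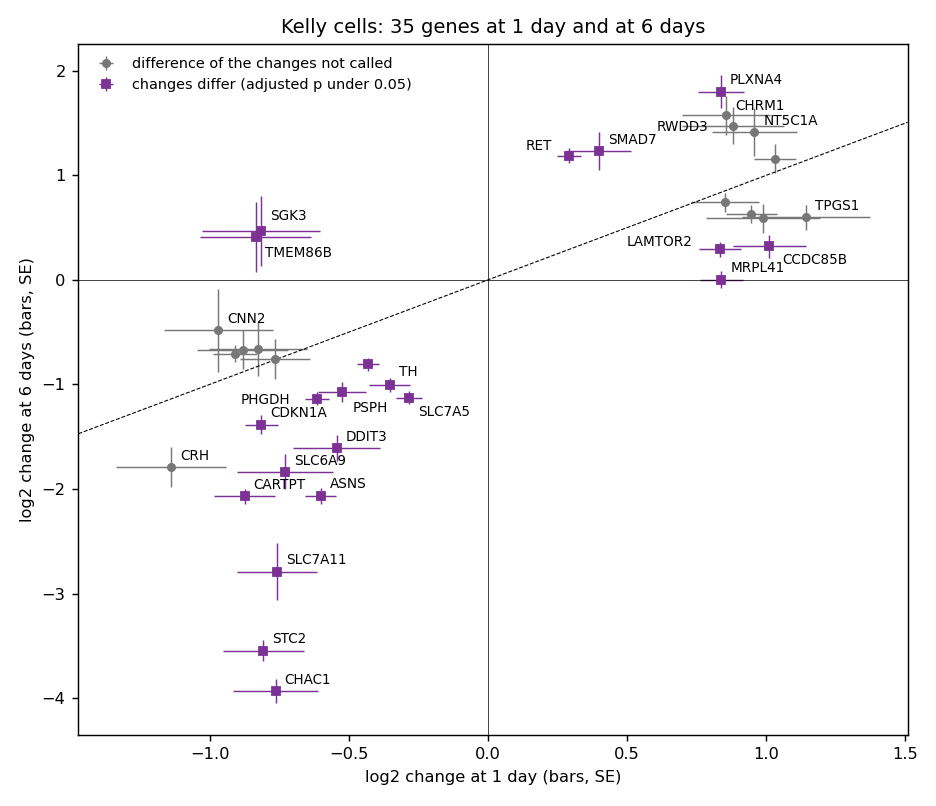
The log2 change at 1 day (horizontal) and at 6 days (vertical, both with SE) in Kelly cells for 35 genes, the 24 largest changes at 1 day and 11 genes named for their function; squares mark genes whose changes differ (edgeR interaction, adjusted p under 0.05). CHAC1, STC2, SLC7A11, ASNS and CARTPT lie far below the line of equal change, PLXNA4 and RET above it, and MRPL41 and LAMTOR2 below it on the side of the rises.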

How the data were processed

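RNA-seq inputs of Kelly cells (3 with DMSO, 3 with STM2457, 1 day) were analysed from gene counts that the authors deposited. Per the labels, poly(A) RNA was fragmented by sonication and made into libraries with a SMART cDNA kit. Per the submitters' processing notes the tools were FastQC 0.11.5, Trimmomatic 0.36, HISAT2 2.1.0 and featureCounts with GRCh38. Per the file headers, featureCounts v1.5.3 counted read pairs over exons of the protein-coding genes of GENCODE 33 by gene name, with no strand option, so antisense and overlapping genes cannot be told apart: 5491 of 19923 genes (27.6%) share exon bases with another.

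Genes were filtered with filterByExpr (minimum count 10, minimum total 15), scaled with TMM and tested two-sided with edgeR 4.0.16 (quasi-likelihood, R 4.3.3, Benjamini-Hochberg, 0.05) on the 6 libraries alone. CPM are counts over the TMM-scaled library total. Kelly and NGP inputs at 6 days were fitted in the same way, and the difference between days as an interaction. Pull-down over input is edgeR's log2 ratio of the 3 pull-downs over the 3 inputs of the DMSO cells after TMM scaling. Exon structure came from the gene models in the count files, promoters from RefSeq (GRCh38.p14), and sequence content from GENCODE 44 (GRCh38). In all, 28 libraries were used and 16 were not. The scripts were tested on simulated counts.

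Genes named were 6 fixed ones, the 12 largest rises and falls, the 5 largest gains and losses of CPM, up to 3 rises and 3 falls per list, and the leading marker of each marker list. The largest changes and the gains and losses of CPM were taken among called genes without overlap between the groups. METTL16, RBM15, VIRMA, ZC3H13, SHMT2, MTHFD2, PSAT1, SLC3A2, ATF4, XBP1, HSP90B1, TRIB3, HERPUD1, THY1 and the synthetases with a promoter match were named after their values were seen. The members and the gene lists, 984 of 988 symbols matched, were chosen with earlier results of these data known. Alternatives were RLE factors, DESeq2 1.42.0, no filter, an offset for GC and length, a replicate block, 1 fit of all 22 inputs, other minimum folds and each library left out. The sources used here do not say whether the libraries were made in batches. Some genes are not reported here.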

Additional observations from a re-analysis of the deposited data

Results flagged for a closer look

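Of 40 genes for which the change at 6 days was set against that at 1 day in Kelly cells, 11 differed in the interaction test of edgeR (Benjamini-Hochberg, threshold 0.05). The log2 change at 6 days was lower than at 1 day by a difference of -3.148 for CHAC1, -2.722 for STC2, -1.18 for CARTPT, -0.8203 for MRPL41, -0.6793 for CCDC85B, -0.5559 for CDKN1A and -0.5251 for LAMTOR2. CHAC1, STC2, CARTPT and CDKN1A had fallen at 1 day and were further down at 6 days, whereas MRPL41, CCDC85B and LAMTOR2 had risen at 1 day and had a smaller change at 6 days. It was higher at 6 days by 0.9843 for PLXNA4, which rose at both times, and by 0.2829 for MYCN, which was not called at 1 day. For TMEM86B and SGK3, 2 of the 12 largest falls at 1 day, the differences were 1.253 and 1.286. Of the 11 genes, all but MYCN were chosen by the size of their 1 day change. The interaction uses the same 1 day libraries again, so this choice by itself favours smaller changes at 6 days.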

How the results depend on the processing

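With 3 libraries per group, small changes were called or not depending on single libraries. Leaving out 1 library at a time gave 1249 to 2426 changed genes (665 to 1236 up, 584 to 1190 down), 150 to 250 of at least 1.5-fold, 66 to 219 past the 1.2-fold minimum, 2499 to 3585 at 6 days in Kelly cells, 128 to 459 in NGP cells and 814 to 1533 interactions. MYCN, not called at 1 day, ranged from -0.081 to 0.0087, the latter without DMSO replicate 2 and opposite in sign to its -0.029. The fit of all 22 inputs called 26 genes, 18 up and 8 down, 18 of them of at least 1.5-fold. The offset for GC and length called 3475 genes, 1823 of them down, and 1642 down with the replicate block added. The block alone called 1618 genes (888 up, 730 down) at 1 day and 870 in NGP cells, and its calls at 1 day included 1605 of the 2315. Same-numbered libraries of the 2 groups did not deviate together (correlations of -0.087, -0.038 and -0.305 over 10925 genes). Differently numbered pairs ran from -0.203 to 0.269. With 3 libraries per group, each set against its group mean, these values cannot decide whether same-numbered libraries were paired. Minimum folds of 1.1 and 1.5 in place of 1.2 passed 799 genes and 1 gene. The Kelly pull-down medians were 1.63 and -0.80 for genes that rose or fell at least 1.5-fold, and -2.59 for genes that fell among those of at least 10 CPM. RLE factors and DESeq2 called 2414 and 2411 genes, of which 49.9% and 49.2% were up. Of 195 genes chosen for naming, these 2 settings each lost 4 calls, the block 30 and the absence of treated replicate 1, 2 or 3 lost 48, 49 and 43. The cause of these shifts was not tested.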

Other observations

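Among genes of actin and its regulation, PFN1, which loads actin monomers, fell by 0.25 and ZYX, a focal adhesion protein, by 0.40 (edgeR, Benjamini-Hochberg adjusted p 0.000805 and 0.00219). Nucleolar genes were called in both directions: NPM1, a nucleolar chaperone, fell by 0.27, whereas RRS1, which acts in the assembly of the large ribosomal subunit, rose by 0.44 (edgeR, Benjamini-Hochberg adjusted p 0.000332 and 0.00136). The linker histone gene H1-5 fell by 0.70 (edgeR, Benjamini-Hochberg adjusted p 0.00322). EEF2, the elongation factor that moves the ribosome along the mRNA, rose from 4808, 5198 and 4567 CPM to 5709, 5529 and 5785 CPM (0.22, edgeR, Benjamini-Hochberg adjusted p 0.00128).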
